A study of Mus musculus with 18 samples.

Results

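Mouse eosinophils cultured with apoptotic cells (ACs) and no other stimulus were sequenced in 2 separate experiments, and the transcripts of those 6 libraries are described here. Of the 18 libraries in the series, 3 came from the ACs arm of the experiment with type 1 stimuli (the Type 1 experiment) and 3 from the ACs arm of the experiment with IL-4 (the IL-4 experiment). The 6 carry the same strain, cell type and treatment labels (C57BL/6, eosinophils, ACs), and they were assigned to an experiment by the spelling of their descriptions. Genes outside chromosomes X and Y were taken when their mean normalized count over the 6 libraries was at least 10, which held for 10277 autosomal genes of the 54446 genes in the table. Of these, 9607 had a mean of at least 10 in both experiments, 430 were under 10 in the Type 1 experiment only and 240 in the IL-4 experiment only, so a low gene could enter through the experiment in which it was high. The genes nearest to that limit were Gm44663 at 10.003 and E430018J23Rik at 10.01, and the nearest ones left out were Gm15401 at 9.98 and Cmtm4 at 9.965.

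According to the methods of the study, the eosinophils were washed from the peritoneal cavity of NJ.1638 Il5Tg mice, which carry an Il5 transgene and hold far more eosinophils than wild type mice, and were purified by removing cells that bind anti-Thy1.2 or anti-B220. The ACs were wild type thymocytes driven into apoptosis with the glucocorticoid dexamethasone, and were left with the eosinophils for 18 hours at 5 ACs per eosinophil before the eosinophils were recovered with anti-Siglec-F beads. The methods describe the transgene, the kind of ACs and the culture without separating the experiments, so both groups share the protocol as written. Whether the actual conditions of culture were the same is not stated and was not tested. The experiment, its mice, thymocyte batch, culture and library preparation cannot be told apart, because each experiment holds its own 3 libraries. The labels do not say whether the 3 libraries of a group came from separate mice. The study's statistics refer to biological replicates, and one of its legends assigns every lane to another mouse, without tying this to the libraries compared here. The p-values measure the spread between these libraries.

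Eosinophils are granulocytes that depend on IL-5, carry the chemokine receptor CCR3 and, in mice, Siglec-F, and store cationic granule proteins. Phagocytes that take up dying cells must digest the lipid, protein and nucleic acid of the corpse, and such uptake is known to change lipid handling, energy metabolism and cytokine output. Cells short of oxygen stabilise the transcription factor HIF, which binds the DNA core ACGTG and raises genes of glucose uptake, glycolysis and vessel growth. Interferons act through STAT and IRF factors and raise a separate group of antiviral genes.

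The libraries were made with CEL-Seq2, which reads the 3′ ends of transcripts, so levels of different genes are counts of ends and were not divided by length. The Type 1 libraries held 4234312 to 4844424 reads on genes. The IL-4 libraries held 5303906 and 5294244 reads in replicates 1 and 2 and only 779421 in replicate 3, in which 3 reads stand for a normalized count of 16.1, against 2.26 to 2.82 in the other 5. Replicate 3 also stood apart from its own group across genes (Spearman 0.928 and 0.935, against 0.979 to 0.980 for the other pairs within a group and 0.895 to 0.931 for pairs between the experiments). Of the defining eosinophil transcripts, Siglecf (3169 to 3367 against 2472 to 2715), Ccr3 (3211 to 3385 against 2976 to 3703) and Il5ra (388 to 455 against 102 to 159.6) were found in every library, whereas Epx, which encodes eosinophil peroxidase, was close to 0, with means of 0.857 and 12.02. Transcripts associated with peritoneal macrophages were also present in all 6 libraries, among them Adgre1 (1698 to 1874 against 2077 to 2300.0) and Csf1r (1074 to 1319 against 1539 to 1779). The complement chain C1qc, named after its values were seen, was at 6977 to 9299 against 8139 to 14052. Its count was above those of Siglecf and Ccr3 in every library. The methods state that eosinophil purity was checked by flow cytometry before and after the culture.

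The most abundant transcripts were largely the same in both experiments. With the sex chromosomes left out, 39 transcripts were among the 50 with the highest mean in each experiment, 30 of them autosomal and 9 mitochondrial, and together they made up 22.7% to 24.5% of the normalized counts in the Type 1 libraries and 20.9% to 25.2% in the IL-4 libraries. Of the 39, 7 were higher and 4 lower in the IL-4 experiment by the threshold used throughout (limma, Benjamini-Hochberg adjusted p under 0.05 and at least 1.5-fold), and 28 were not past it. By the same threshold 10.8% of all autosomal genes were higher and 8.45% were lower.

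Saa3, an acute phase apolipoprotein encoded at chr7:46711998-46715700 (GRCm38), led the nuclear transcripts of both experiments. It was counted at 116403, 114633 and 81591 in the Type 1 libraries and at 148683, 182842 and 211158 in the IL-4 libraries. The groups did not overlap, and the log2 difference, IL-4 minus Type 1, was 0.80 ± 0.18 (SE; limma adjusted p = 0.011), but the call was lost when Type 1 replicate 3 was left out (0.63, limma adjusted p = 0.052). Srgn, the core of the proteoglycan in secretory granules, was at 29970.2, 30352 and 29919 against 36583, 38945 and 34838, a log2 difference of 0.29 ± 0.11 that was not past the threshold (limma adjusted p = 0.075).

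Retnla, an effector of type 2 activation, was at 29367, 33575 and 26657 against 54172, 57583 and 62246, 1.94-fold higher (log2 0.96 ± 0.13, limma adjusted p = 0.00057). The chemokine Ccl6 kept a narrow range in each experiment, at 12516, 12095 and 12926 against 29312, 29177 and 27520.0, and was 2.29-fold higher (limma adjusted p = 4.6e-05). B2m, the light chain of MHC class I, went the other way, at 27891, 35126 and 26675 against 18158, 16306 and 21108 (log2 −0.69 ± 0.14, limma adjusted p = 0.0074), and fell short of 1.5-fold without Type 1 replicate 2 (−0.57). Of the class I heavy chains, H2-D1, named after its values were seen, was lower by 0.83 on the log2 scale and H2-K1 was not past the threshold (11157 to 11654 against 11900.5 to 13119), and these genes are similar enough for reads to be divided between them.

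The other shared nuclear transcripts past the threshold were Myl6, Cd24a, Pkm and Actb, all higher in the IL-4 experiment. Pkm and Actb are given below. Myl6 and Cd24a were named after their values were seen. Myl6 had means of 11079 and 25883 (log2 1.22 ± 0.11, limma adjusted p = 6.3e-05). Cd24a had means of 7906 and 17144 (log2 1.12 ± 0.10, limma adjusted p = 5.5e-05). The remaining shared nuclear transcripts were not past the threshold, although for some the groups were apart. Fth1, the heavy chain of ferritin, had means of 25139 and 31021, and Pla2g7, which hydrolyses platelet-activating factor, had means of 19932 and 16274, and neither overlapped between the experiments. The leukocyte integrin Itgb2 and the nuclear protein Ptma differed by 0.33 ± 0.11 and 0.43 ± 0.12 on the log2 scale (limma adjusted p = 0.045 and 0.024), under 1.5-fold, and the glutathione peroxidase Gpx1 by 0.21 ± 0.10, all 3 without overlap. The surface antigen Ly6e, the lysosomal proteins Grn and Lamp1 and the calcium-binding protein S100a11 overlapped. Alox15, a lipoxygenase, was at 9831, 8639.6 and 9753 against 11848, 11451 and 11929, apart between the groups by less than 1.5-fold.

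**Figure D1:**
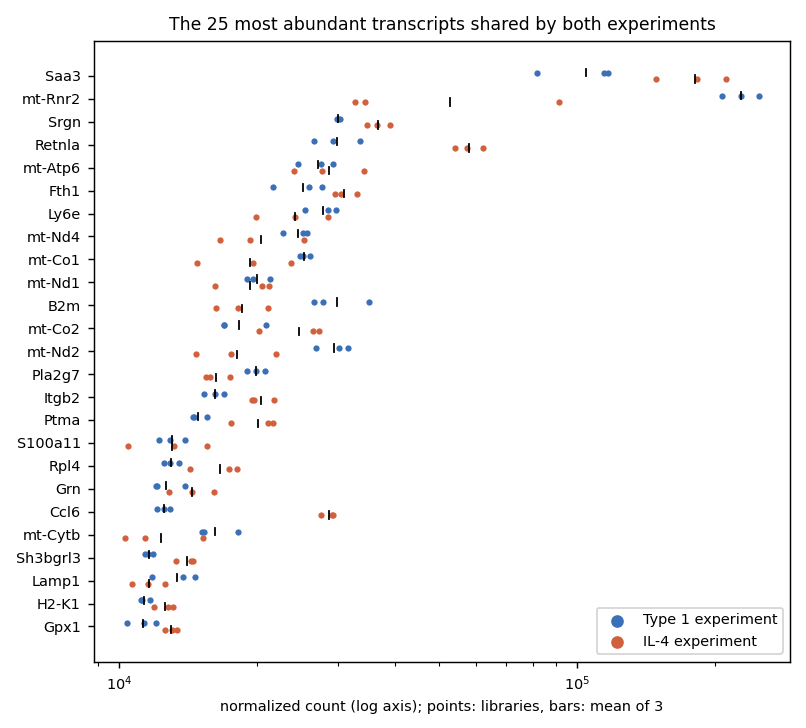
Normalized counts (horizontal, log axis) of the 25 most abundant transcripts shared by both experiments, with 1 point per library and a bar at each mean of 3. Saa3, Retnla and Ccl6 lie higher in all 3 IL-4 libraries, and mt-Rnr2 and B2m lie lower.

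Mitochondrial ribosomal RNAs were lower in the IL-4 experiment. The large subunit RNA mt-Rnr2 was at 227159.6, 248827 and 207168 against 34479, 32759.8 and 91235 (log2 −2.28 ± 0.33, limma adjusted p = 0.001). The small subunit RNA mt-Rnr1, in the top 50 of the Type 1 experiment only, was at 35924, 27981 and 30859 against 3491, 4127 and 7517 (log2 −2.72 ± 0.24). IL-4 replicate 3 had the highest value of its group for both, still below every Type 1 library. Among the messenger RNAs of that genome mt-Nd2 was lower (26858 to 31510.3 against 14722 to 22030.0), although under 1.5-fold without IL-4 replicate 1 (log2 −0.58), and mt-Atp6, mt-Co1, mt-Co2, mt-Nd1, mt-Nd4 and mt-Cytb were not past the threshold. In all, 6 of 16 mitochondrially encoded genes tested were lower (37.5%) and 0 were higher, against 8.45% and 10.8% of all autosomal genes. Mitochondrial transcripts took 10.9% to 11.9% of normalized counts in the Type 1 libraries and 4.17% to 6.72% in the IL-4 libraries, a share that moved with the experiment beside every difference described here, and its part in them was not tested.

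A further 11 transcripts on each side were in the top 50 of 1 experiment only. Aldoa, Pgam1 and Ldha of glycolysis, the apolipoprotein Apoe, the arginase Arg1 and the lysozyme Lyz2 were among those of the IL-4 experiment, and the cytokine receptor chains Csf2ra and Csf2rb and the iron carrier Lcn2 were among those of the Type 1 experiment. Lcn2 ranked 49 in the Type 1 libraries but 342 in the others, at 7669, 8591 and 5926 against 1641, 1801 and 1930.1 (log2 −2.03 ± 0.14, limma adjusted p = 1.7e-05). Actb, the cytoskeletal actin, also named after its values were seen, was in the top 50 of both, but its mean in the IL-4 experiment leaned on replicate 3, since it was at 8505, 6445 and 7228 against 15063, 18359.6 and 61265.

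Across all autosomal genes, 1110 were higher in the IL-4 experiment, which is 10.8% of the 10277 tested, and 868 were lower, which is 8.45%. The 2 groups of 3 did not overlap for 4330 genes (42.1%), including 1107 of the genes called higher and 864 of those called lower. Differences of at least 4-fold were found for 162 genes called higher and 60 called lower, and 122 of the higher genes had a mean under 10 in the Type 1 experiment. The median log2 difference over all autosomal genes was 0.026, and the median standard error was 0.235. Leaving out IL-4 replicate 3 raised the counts to 1425 and 1247, and leaving out Type 1 replicate 1, 2 or 3 lowered the count of lower genes to 527, 526 and 482.

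**Figure D2:**
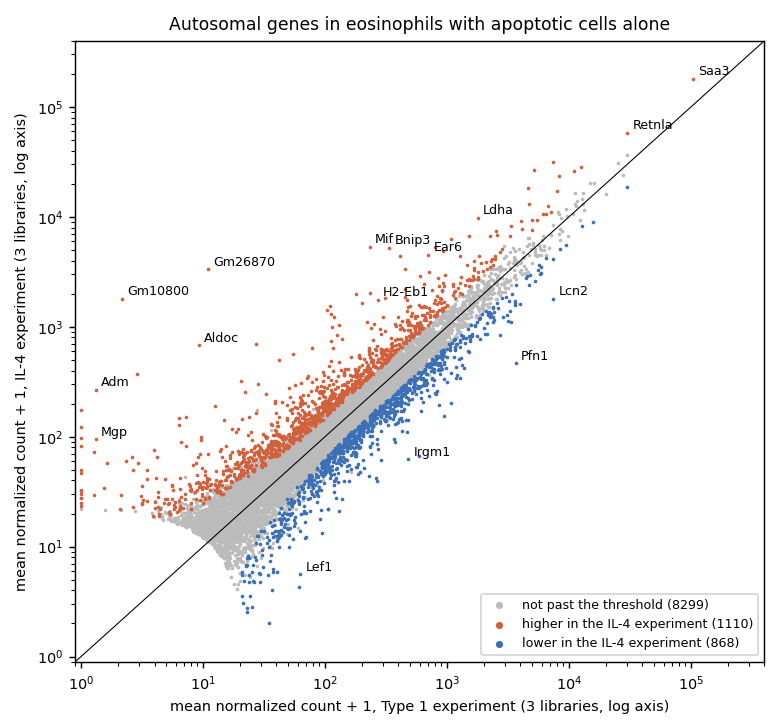
Mean normalized count plus 1 of the 10277 autosomal genes, with the Type 1 experiment horizontal and the IL-4 experiment vertical, 3 libraries each, on log axes. Coloured points are the 1110 genes higher and the 868 lower in the IL-4 experiment.

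Genes of the response to low oxygen were higher in the IL-4 experiment. Of 24 tested, 18 were higher and 1 was lower, against 10.8% and 8.45% of all autosomal genes, and their median log2 difference was 2.21, against 0.026 over all. This list and those below were chosen with earlier results of these data known, so their shares describe the chosen genes. Promoter windows of 3 low oxygen genes and of the glycolytic gene Aldoc are shown because they differ in whether they hold the HIF core although each transcript was far higher. The windows run from 250 bases before to 50 after the annotated start, are RefSeq sequence on GRCm38.p6 written 5′ to 3′ on the strand of the gene, and have ACGTG or its reverse complement CACGT in capitals.
Bnip3, chr7:138909457-138909756, minus strand: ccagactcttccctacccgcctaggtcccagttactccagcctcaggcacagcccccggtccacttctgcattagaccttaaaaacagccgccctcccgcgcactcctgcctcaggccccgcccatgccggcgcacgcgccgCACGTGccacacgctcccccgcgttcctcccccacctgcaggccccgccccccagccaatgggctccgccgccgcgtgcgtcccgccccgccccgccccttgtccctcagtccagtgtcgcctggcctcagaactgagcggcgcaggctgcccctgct
Ankrd37, chr8:45999801-46000100, minus strand: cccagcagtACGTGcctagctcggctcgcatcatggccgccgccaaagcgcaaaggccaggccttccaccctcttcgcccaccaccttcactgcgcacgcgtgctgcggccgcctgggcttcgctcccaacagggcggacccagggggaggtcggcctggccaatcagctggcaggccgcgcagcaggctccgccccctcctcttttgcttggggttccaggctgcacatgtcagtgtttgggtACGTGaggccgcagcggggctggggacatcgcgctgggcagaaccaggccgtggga
Aldoc, first of 2 windows, chr11:78322823-78323122, plus strand: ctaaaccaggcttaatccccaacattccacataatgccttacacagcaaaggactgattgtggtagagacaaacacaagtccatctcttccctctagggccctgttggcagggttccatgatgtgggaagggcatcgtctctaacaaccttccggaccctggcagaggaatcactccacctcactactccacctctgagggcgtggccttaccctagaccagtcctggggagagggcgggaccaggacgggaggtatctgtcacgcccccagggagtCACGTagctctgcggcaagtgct
Adm, chr7:110627407-110627706, plus strand: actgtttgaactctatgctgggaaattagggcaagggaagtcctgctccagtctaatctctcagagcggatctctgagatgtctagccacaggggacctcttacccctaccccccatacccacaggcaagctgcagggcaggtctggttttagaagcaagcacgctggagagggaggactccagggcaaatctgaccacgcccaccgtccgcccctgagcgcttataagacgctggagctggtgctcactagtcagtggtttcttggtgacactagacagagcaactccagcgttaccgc
The Bnip3 window holds 1 palindromic stretch in which both strands match, the Ankrd37 window holds 2 separate matches, the first Aldoc window holds 1, and the Adm window and the other Aldoc window hold 0. Over the low oxygen list, 17 of the 21 genes with a window (81%) held the core, as did 7 of 12 glycolytic genes (58.3%), against 2371 of the 7838 tested autosomal genes with a window (30.3%) and 19.6% of all windows. The list was made of genes of the response to low oxygen, so its share describes the list and not these data. Of all autosomal genes with a window, the core was in 33% of those called higher and in 29.3% of those called lower. A match describes letters and not binding.

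Among the secreted members, Adm, which encodes the vasodilator peptide adrenomedullin, was at 0, 0.940 and 0 against 249.7, 308 and 241. The Type 1 value is 1 read over the 3 libraries, so the ratio of the summed reads, each sum divided by the summed depth of its libraries, was 972 with a 95% counting interval of 174 to 38435, which covers counting error only. This ratio weights libraries by depth, and so do the ratios given with an interval for other genes of few reads. Vegfa, the vascular growth factor, was at 66.7, 158 and 84.00 against 1564, 1731 and 965, a log2 difference of 3.83 ± 0.31 (limma adjusted p = 3.4e-05). For both genes the lowest IL-4 library lay well above the highest Type 1 library.

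The enzymes that sense oxygen or depend on it were higher too. Egln3, a prolyl hydroxylase that marks HIF for destruction, was at 132, 267 and 141 against 2219, 2588 and 1185 (log2 3.47 ± 0.32, limma adjusted p = 6.7e-05). Egln1, a related prolyl hydroxylase, was at 124 to 137 against 670.2 to 1253 (log2 2.93 ± 0.22). The collagen prolyl hydroxylase subunits P4ha1 and P4ha2 were higher by 2.30 and 3.60 on the log2 scale, and the histone demethylase Kdm3a by 1.17. For each of these 5 genes the groups did not overlap.

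Members that act on mitochondria and lipid stores moved the same way. Bnip3, which directs the removal of mitochondria, was at 347, 342 and 316 against 5668, 6822 and 3115, 3.88 ± 0.24 on the log2 scale (limma adjusted p = 7.7e-06). Pdk1, which keeps pyruvate out of mitochondria, was at 89.5, 64.8 and 94.6 against 359, 378 and 273, and Hilpda, which blocks lipid breakdown on lipid droplets, at 179 to 233 against 1529 to 1826. Ankrd37, an ankyrin repeat protein, was near the limit of detection in the Type 1 libraries, at 2.44, 9.38 and 4.08 against 124, 156 and 96.5. Ndrg1, a stress-induced cytoplasmic protein, was at 34.97, 13.1 and 30.2 against 860.2, 779 and 450.4 (log2 4.74 ± 0.35). The shallow IL-4 replicate 3 was the lowest of its group for Vegfa, Egln3, Egln1, Bnip3, Ankrd37 and Ndrg1, yet above every Type 1 library in each.

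Not every member moved. Ddit4, an inhibitor of mTOR that glucocorticoids also induce, was lower in the IL-4 experiment, at 812, 951 and 876 against 344, 352 and 407 (log2 −1.26 ± 0.13, limma adjusted p = 0.00012). The factor Hif1a was at 617 to 738 against 568 to 639.9 (log2 −0.11 ± 0.12), and Pfkfb3, Pfkfb4, Bhlhe40 and Car9 were not past the threshold. Hk1, a constitutive hexokinase, was 0.74 ± 0.17 higher on the log2 scale and lost its call without Type 1 replicate 2 or 3 (limma adjusted p = 0.055 and 0.051) and without IL-4 replicate 2 (0.55, under 1.5-fold), whereas Hk2, the inducible form, was at 444 to 572 against 1479.7 to 1649.8.

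All 12 tested genes of the glycolysis list were higher in the IL-4 experiment, against 10.8% of all autosomal genes. Their median log2 difference was 2.38, and all 12 stayed past the threshold when any 1 library was left out. Of the upper pathway, Pfkl, a phosphofructokinase, was at 112, 107 and 115 against 649, 862 and 713 (log2 2.71 ± 0.15, limma adjusted p = 3.7e-06). Aldoc, an aldolase best known from brain, had the largest difference, at 4.07, 13.1 and 7.34 against 711, 985 and 332 (log2 6.19 ± 0.44), while the main form Aldoa was at 5611, 4904 and 4955 against 23820.5, 39115 and 17349. Aldoc was thus the lesser part of the aldolase counts in every library.

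The lower pathway followed. Tpi1, the triose isomerase, was at 396, 489 and 345 against 4577, 5735 and 2933, and Gapdh, whose transcript is often taken as a constant, was at 1104, 1099 and 1035 against 6607, 7735 and 4659 (log2 2.52 ± 0.17, limma adjusted p = 1.1e-05). Eno1 (415 to 498 against 2895 to 3829.7), Pgam1 (4313 to 4839.7 against 15269 to 20274) and Pkm (7590.4 to 9225 against 19859 to 26432), which carry the steps towards pyruvate, did not overlap between the experiments. Ldha, which turns pyruvate into lactate, was at 1819.9, 1804 and 1712 against 9819.8, 11158 and 8487 (log2 2.46 ± 0.12), and the lactate exporter Slc16a3 at 606, 667 and 680.2 against 2728, 2865 and 1694. The glucose importers Slc2a1 and Slc2a3 were at 97.6 to 125 against 369.9 to 590.1 and at 211 to 274 against 1249 to 2499.8. Gpi1 had the smallest difference of the list, 0.96 ± 0.19 (limma adjusted p = 0.0066). Glycolytic genes have many processed pseudogenes, to which some reads may have been assigned.

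**Figure D3:**
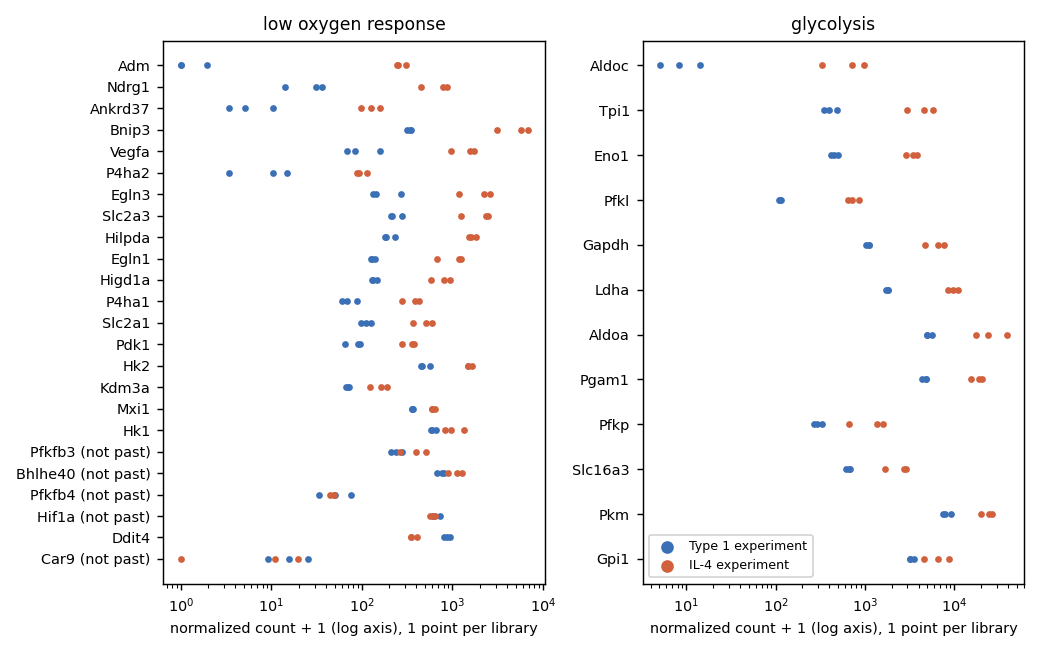
Normalized count plus 1 (log axis) of the tested members of the low oxygen list and the glycolysis list, 1 point per library. The groups are apart for the 12 glycolytic genes and for most of the low oxygen genes, and Ddit4 lies the other way.

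Interferon-induced genes were lower in the IL-4 experiment. Of 30 tested, 16 were lower and 0 were higher, against 8.45% and 10.8% of all autosomal genes, 27 had a negative difference, and the median log2 difference was −0.75. Replicate 3 of the IL-4 experiment lay above replicates 1 and 2 for nearly all of them, and without it 23 were lower, while leaving out any other library gave 13 or 14. The promoter of Irgm1, the member with the largest fall, is shown because it holds overlapping copies of the interferon response core (GAAA, any 2 bases, GAAA), a motif chosen after the values were seen and given in capitals (RefSeq, GRCm38.p6, same window as above).
Irgm1, chr11:48871371-48871670, minus strand: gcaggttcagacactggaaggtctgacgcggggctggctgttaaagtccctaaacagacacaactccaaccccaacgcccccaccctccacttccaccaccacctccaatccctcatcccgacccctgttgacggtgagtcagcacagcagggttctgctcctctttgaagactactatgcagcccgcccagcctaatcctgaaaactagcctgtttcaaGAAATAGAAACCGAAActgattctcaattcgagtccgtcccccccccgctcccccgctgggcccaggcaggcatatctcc
This core was found on either strand in 15 of the 24 list genes with a window (62.5%), in 7 of the 13 that were lower (53.8%), and in 4.22% of the tested autosomal genes. The list was made of interferon-induced genes, so its share describes the list. Of all autosomal genes with a window, the core was in 7.84% of those called lower and in 3.01% of those called higher.

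Irgm1, a GTPase of cell-autonomous immunity encoded at chr11:48861968-48871683, was at 494, 431 and 515 against 43.6, 44.4 and 96.5, 7.8-fold lower (log2 −3.04 ± 0.28, limma adjusted p = 6.8e-05). Mx1, an antiviral GTPase, was at 658, 604 and 657 against 199, 199 and 214 (log2 −1.64 ± 0.12), with the 3 libraries of each group close together. The transcription factors of the pathway were lower as well, Irf7 at 7917, 7267 and 6883 against 3336, 4167 and 4975 (log2 −0.84 ± 0.15) and Irf1 at 791, 823 and 736 against 319, 254 and 418 (log2 −1.27 ± 0.17). Of the genes related to the sensing of viral RNA, Oasl2 (3303 to 3933 against 1348 to 1914) and Oas3 (1182 to 1582 against 608 to 863) were lower. The GTPases Ifi47 and Igtp, both induced by IFN-γ, fell by 1.38 and 0.94 on the log2 scale (limma adjusted p = 0.0044 and 0.0058). Rsad2, the antiviral protein viperin, was at 3429, 2914 and 3242 against 1482, 1024 and 2675, and its call was lost without Type 1 replicate 1, 2 or 3 or IL-4 replicate 1 or 2 (limma adjusted p = 0.052 to 0.093).

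Members that were not past the threshold included Isg15 (885 to 1195 against 824 to 1914), Cxcl10 (133 to 207 against 102 to 483), Bst2 (1399 to 1599 against 1557 to 2606) and Usp18 (697 to 781 against 501 to 804). For each of these the highest IL-4 value was that of replicate 3. Ifit and Gbp genes have close relatives, and reads could have been divided among them in counting. Socs1, a feedback inhibitor of cytokine receptors kept on the type 2 list, was at 2752, 2622 and 2721 against 826, 694 and 1013, lower by 1.69 on the log2 scale (limma adjusted p = 4.1e-05).

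Genes of antigen presentation by MHC class II were higher in the IL-4 experiment. Of the 7 tested members of the dendritic cell and MHC class II list, 5 were higher (71.4%) and 0 were lower, against 10.8% and 8.45% of all autosomal genes. Their median log2 difference was 2.29. H2-Eb1, a class II beta chain, was at 239, 349 and 218 against 1829, 1651 and 1796 (log2 2.74 ± 0.17, limma adjusted p = 8.5e-06). The alpha chain H2-Aa was at 322, 295 and 307 against 1828, 1615 and 2080.2, and the invariant chain Cd74 at 225, 216 and 223 against 1167, 1221 and 933. The integrin Itgax, carried by dendritic cells and other myeloid cells, was at 255 to 275 against 199 to 279. The summed list was at 1534 to 1678 in the Type 1 libraries and at 7077 to 7511 in the IL-4 libraries. In these bulk libraries, more cells of a type and more RNA per cell cannot be told apart.

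Markers of eosinophils changed in both directions. Of 22 tested, 4 were higher (18.2%, against 10.8% of all autosomal genes) and 5 lower (22.7%, against 8.45%), and the summed list was at 58051 to 59715 against 51196 to 54620. Siglecf was at 3169, 3175 and 3367 against 2715, 2687 and 2472, a log2 difference of −0.30 ± 0.10 that was not past the threshold (limma adjusted p = 0.051), and Ccr3 differed by 0.06 ± 0.11. Receptor chains for IL-5 and related cytokines were lower, Il5ra at 388, 443 and 455 against 149, 159.6 and 102 (log2 −1.66 ± 0.19, limma adjusted p = 0.00023), Csf2ra by 0.79 and the shared chain Csf2rb by 0.74, as was the IL-33 receptor Il1rl1 by 0.69. The ribonuclease Ear6 was higher, at 689.6, 734 and 685 against 4667, 5441 and 3437 (log2 2.66 ± 0.16), as was Prg2, the major basic protein of the granule, at 90.3, 81.7 and 75.8 against 169.9, 214 and 155 (limma adjusted p = 0.0024). Ear genes are near copies of each other, so the division of reads between Ear1, Ear2 and Ear6 is uncertain.

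No IL-4 was added to any of these 6 libraries. Of 16 type 2 effector genes tested, 5 were higher (31.2%, against 10.8% of all autosomal genes) and 2 lower (12.5%, close to the 8.45% of all). Besides Retnla, the higher ones were Chil3, a chitinase-like protein, at 2852, 2579 and 2189 against 5825, 7175 and 9431 (log2 1.54 ± 0.17, limma adjusted p = 0.00023), the eosinophil attractant Ccl24 at 99.2, 115 and 75.8 against 226, 286 and 327, Arg1, which breaks down arginine, at 6993, 7065 and 6089.7 against 10730.4, 10074 and 17038, and the lectin Mgl2 at 13.1 to 24.4 against 37.5 to 61.5. The mannose receptor Mrc1 and Socs1 were the lower ones, Mrc1 at 97.6, 134 and 94.6 against 46.6, 38.1 and 53.6. Il4, Il4ra and Stat6 were not past the threshold.

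Of 31 inflammatory cytokine and NF-κB genes tested, 14 were higher (45.2%, against 10.8% of all autosomal genes). Another 3 were lower (9.68%, close to the 8.45% of all). The median log2 difference was 0.59, and the counts were 10 and 3 without Type 1 replicate 3. The cytokine Il1b was at 3.25, 12.2 and 8.97 against 53.4, 36.6 and 102 (log2 2.85 ± 0.52, limma adjusted p = 0.004), and Il1a at 56.1, 25.3 and 36.7 against 113, 112 and 177. The neutrophil attractants Cxcl1 (63.6 to 81.7 against 204 to 265) and Cxcl2 (625 to 675 against 1271 to 1819.7) did not overlap between the experiments. The lower members were a receptor, a chemokine and a factor subunit, Cd14 (5081 to 6301 against 2928 to 3233), Cxcl3 (83.2 to 127 against 42.9 to 48.3) and Nfkb1 (552 to 566 against 293 to 407). Tnf, Il6, Il10 and Ccl2 were not past the threshold.

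Of 20 immediate early genes tested, 8 were higher (40%, against 10.8% of all autosomal genes) and 2 lower (10%, close to the 8.45% of all), or 5 and 1 without IL-4 replicate 1. Ier3, a survival factor, was at 498, 471 and 377 against 1864, 1985 and 1726 (log2 2.06 ± 0.13, limma adjusted p = 1e-05), and Klf2, a Krüppel-like factor, at 1228, 1359.8 and 1258 against 4027, 6113 and 3115. The AP-1 subunit Fos went the other way, at 2201, 2060.0 and 2165 against 815, 1075 and 686 (log2 −1.34 ± 0.15). The AP-1 site TGACTCA, searched on both strands, was in 0 of the 17 windows of this list and in 4.61% of those of the tested autosomal genes. The amino acid and ATF4 list had 8 higher and 1 lower of 19 (42.1% and 5.26%, beside the same 10.8% and 8.45%), or 5 and 0 without Type 1 replicate 3. Atf4, the factor itself, was at 873, 973 and 997 against 2478, 2202 and 2321 (log2 1.30 ± 0.11), and its target Sesn2, a stress sensor, at 104, 92.9 and 81.6 against 228, 164 and 166.

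Genes of translation and chromatin were shifted by smaller amounts. Of 72 ribosomal protein genes, 29 were higher (40.3%) and 0 were lower, against 10.8% and 8.45% of all autosomal genes. Their median log2 difference was 0.50, and 65 of the 72 had a positive difference. Rps19 had the largest, with means of 473 and 1392 (limma adjusted p = 4.7e-05), and Rps13 the most negative at −0.54, which was under 1.5-fold. Of 9 histone genes, 5 were higher (55.6%, beside the same 10.8%), or 3 without IL-4 replicate 2. Among the 5 was the linker histone Hist1h1c at 261, 261 and 271 against 663, 849 and 477 (log2 1.29 ± 0.19). Ribosomal protein genes also have many processed pseudogenes that can share their reads.

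Among the 20 largest rises, taken over genes whose groups were apart and whose higher group averaged 50 or more, 6 were genes that share repeated sequence. Gm10800 on chromosome 2 was at 0, 1.88 and 1.63 against 1684, 1165 and 2541 (log2 9.77 ± 0.42, limma adjusted p = 1.3e-06), and Gm26870 on chromosome 9 at 5.69, 12.2 and 12.2 against 1910.0, 4353 and 3753. Gm10717, Gm10719 and Gm10801 had 0 reads in the 3 Type 1 libraries and means of 174, 121 and 97.1 in the IL-4 libraries, at least 204-fold, 142-fold and 114-fold higher against a floor of 3 reads over the group. Gm11168 had 1 read there and a mean of 72.2, a ratio of 226 with a 95% counting interval of 40.1 to 8988. That the groups were apart for all 6 follows from the rule that chose them. All but Gm26870, with a Type 1 mean of 10.04, had Type 1 means under 10 and passed the mean filter through the IL-4 libraries.

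These 6 genes share sequence, which is why they are read together. The GENCODE transcript of Gm10800 is 660 bases long, and of its 500 distinct 25-base words 162 also occur in Gm10801, 110 in Gm10717, 94 in Gm10719 and 102 in Gm11168, while 156 occur in Gm26870 on the opposite strand. Its bases 557 to 660 are given with the 41-base run that all 5 same-strand transcripts hold in capitals.
Gm10800: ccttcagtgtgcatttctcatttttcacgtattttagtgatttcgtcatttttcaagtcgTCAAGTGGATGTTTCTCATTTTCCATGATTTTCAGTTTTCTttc
Gm26870 also overlaps Gm10717, Gm10719 and Gm11168 on the other strand, and the strand setting of the counting was not given in the sources used here, so reads of the 6 cannot be assigned to 1 locus or 1 strand.

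Among the other members of the 20 largest rises were 2 genes of connective tissue. Mgp, the matrix Gla protein that blocks calcification, was at 0, 0.940 and 0 against 100.01, 107 and 75.1, a ratio of 357 with a counting interval of 63.6 to 14152 because 1 read was found in the Type 1 libraries. Col3a1, a fibrillar collagen of mesenchymal cells, had 0 reads there and was at 44.4, 40.5 and 161 in the IL-4 libraries, at least 96.1-fold higher. Both were thus hardly detected in the Type 1 experiment and passed the mean filter through the IL-4 libraries. The naming rule required their groups to be apart.

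Mif, macrophage migration inhibitory factor, encoded at chr10:75859353-75860240, had the highest mean of the 20 in the IL-4 experiment, at 229, 267 and 199 against 5112, 6598 and 4209, 22.9-fold higher (log2 4.50 ± 0.17, limma adjusted p = 1.3e-06). Mgarp, a mitochondrial protein, was at 5.69, 0 and 0 against 371, 436 and 311, and Ak4, a mitochondrial adenylate kinase, at 0.810, 0 and 4.08 against 84.97, 90.3 and 16.1, where the last value equals 3 reads. Stc2, a secreted glycoprotein on the ATF4 list, had 2 reads in the Type 1 libraries and was at 35.3, 69.3 and 64.3 in the others, a ratio of 93 with a counting interval of 25.3 to 775. The remaining rises, Ppp1r13l, Iqcg, Rgs11 and Prelid2, had Type 1 means of 5.33, 6.18, 2.98 and 1.36 and IL-4 means of 147, 150.2, 75.4 and 58.98.

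The 20 largest falls were taken by the same rule. Pfn1, the actin-binding protein profilin, encoded at chr11:70651850-70654644, was at 3853, 3475 and 3624 against 444, 638 and 316, 7.83-fold lower (log2 −3.02 ± 0.21, limma adjusted p = 1.5e-05). Hspb1, a small heat shock protein, was at 565, 751 and 458 against 54.1, 52.9 and 91.1 (log2 −3.16 ± 0.25). Of the 14 heat shock and chaperone genes tested, only Hspb1 and Hspa4 were lower (14.3%, against 8.45% of all autosomal genes). In that list 0 were higher (1 without IL-4 replicate 3), against 10.8% of all. Hspa4 lost its call without Type 1 replicate 3 (limma adjusted p = 0.06) and fell short of 1.5-fold without IL-4 replicate 1 or 2 (log2 −0.569 and −0.526). Ms4a6b, a membrane-spanning protein of leukocytes, was at 1087, 900.0 and 848 against 189, 95.8 and 172, and Gm5431 at 1077, 1248 and 903 against 156, 164 and 289.5.

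Other falls were found at lower levels. The organic anion transporter Slco4c1 was at 245, 264 and 288 against 36.9, 25.7 and 53.6, the granin Chga at 102, 87.3 and 88.9 against 21.8, 9.34 and 5.36, and the integrin Itgb8 at 77.2, 68.5 and 55.5 against 5.26, 6.23 and 21.4. Slamf9, Smpd3, Cd59a and Lipg, which encode a SLAM family receptor, a sphingomyelinase, a complement inhibitor and a lipase, had log2 differences of −2.72, −2.47, −2.47 and −2.33. Jaml, an adhesion molecule, fell by 2.64 but lost its call without Type 1 replicate 1, 2 or 3 or IL-4 replicate 1 (limma adjusted p = 0.051 to 0.071). The neighbours Phf11c and Setdb2 on chromosome 14, of which Setdb2 encodes a histone methyltransferase, were at 218 to 251 against 37.5 to 48.3 and at 85.4 to 122 against 13.5 to 32.2. Ifit1bl1, Gm1966 and Gm42427 completed the falls with log2 differences of −2.34, −2.41 and −2.34.

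Transcripts of lymphoid and red cells were lower in the IL-4 experiment. Of 9 tested thymocyte markers, 5 were lower (55.6%) and 1 was higher (11.1%), against 8.45% and 10.8% of all autosomal genes. Over the alternatives 2 to 8 were lower, with 3 and 2 without Type 1 replicates 1 and 3. Lef1, a T cell transcription factor, was at 30.1, 72.3 and 83.2 against 6.02, 7.79 and 0 (log2 −3.87 ± 0.80, limma adjusted p = 0.0072) and lost its call without Type 1 replicate 3 (−3.59, limma adjusted p = 0.052). The chromatin organiser Satb1 was at 111, 104 and 137 against 55.6, 45.9 and 32.2. The receptor chain Cd3d, named here after its values were seen, went the other way at 8.13, 13.1 and 13.1 against 25.6, 42.04 and 37.5. Of the defining thymocyte genes, Cd4 was found in all 6 libraries, at 39.03, 39.42 and 39.96 against 7.52, 7.79 and 16.08. Cd3e, Cd8a and Cd8b1 had 26, 21 and 37 reads over the 6, with means of 6.41, 5.38 and 7.49 against 0.78, 0.78 and 2.55. The immature thymocyte genes Ptcra, Rag1 and Dntt had 3, 4 and 6 reads over all 6 libraries.

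All 4 tested B cell genes were lower, against 8.45% of all autosomal genes, but only 1 when any single Type 1 replicate was left out. The immunoglobulin chain Ighm was at 861, 880.3 and 992 against 454, 391 and 402, and Ighg2b, the largest fall by that rule, at 66.7, 82.6 and 31.8 against 9.02, 0.780 and 0 (log2 −4.45 ± 0.82). All 4 globin genes tested were lower, with Hbb-bs at 1055, 1476 and 1046 against 216, 416 and 381, although Hbb-bt lost its call when any single Type 1 replicate, or IL-4 replicate 1 or 2, was left out. The summed thymocyte list was at 436 to 573 against 166 to 211, the B cell list at 1276 to 1486 against 540 to 767, and the erythroid list at 2631 to 3611 against 605 to 1142.

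Macrophage transcripts leaned the other way. Of 25 tested, 9 were higher (36%, against 10.8% of all autosomal genes) and 2 lower (8%, close to the 8.45% of all). Without IL-4 replicate 3 the counts were 9 and 6. Their sum was at 37139 to 47201 against 53853 to 85139. Fn1, fibronectin, was at 270.0, 238 and 239 against 817, 1033 and 1356 (log2 2.07 ± 0.18), C1qb of complement at 2666, 2821 and 2252 against 5564, 7363 and 7426, and Apoe at 5224, 4790.0 and 4059.8 against 10942, 10666 and 17725. Selp and Fcgr1, which encode P-selectin and a high affinity IgG receptor, were lower, and Gata6, the factor that defines large peritoneal macrophages, was at 118 to 187 against 74.4 to 182. The defining marker Timd4 was at 115 to 153 against 81.2 to 150. For 8 of the 9 marker sums the groups did not overlap, mast cells being the exception, beside 42.1% of single autosomal genes. For those 8 the exact permutation test of 3 against 3 gave its smallest two-sided p, 0.1 (0.112 after Benjamini-Hochberg adjustment). These sums moved with the experiment beside the gene differences given here, and their part in them was not tested.

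Lists tied to uptake of dying cells were read against 10.8% higher and 8.45% lower over all autosomal genes. Of 24 efferocytosis genes, 2 were higher and 4 lower (8.33% and 16.7%), or 2 and 7 without IL-4 replicate 3, with the receptor Axl at 305, 267 and 273 against 118, 149 and 134 (log2 −1.07 ± 0.15) and Mertk at 221 to 294 against 132 to 332. Of 18 genes of LXR and lipid efflux, 2 were higher and 1 lower (11.1% and 5.56%), or 3 and 2 without IL-4 replicate 3, with the lipase Lpl at 167, 155 and 169 against 552, 465 and 579 and Abca1 not past the threshold. Cholesterol synthesis and uptake gave 2 higher of 14, 0 when any single Type 1 replicate was left out and 1 without IL-4 replicate 1 or 2. NRF2 and oxidative stress gave 4 higher and 1 lower of 17 (23.5% and 5.88%), with the heme oxygenase Hmox1 at 2168, 1722 and 1576 against 4446, 3805 and 5013. The lower one, Gsr, was lost without Type 1 replicate 2 or 3. It was under 1.5-fold without IL-4 replicate 3 (log2 −0.522) and with array weights (−0.473).

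Other lists had calls in both directions or few, beside the same 10.8% and 8.45%. The glucocorticoid list had 2 higher and 4 lower of 14 (14.3% and 28.6%), or 5 and 6 without IL-4 replicate 3, with Il1r2, a decoy receptor for IL-1, at 126, 106 and 111 against 739.9, 824 and 348 and Fkbp5 at 720.5, 813 and 731 against 379.7, 363 and 279. Cell survival and death had 5 higher and 2 lower of 21. Neutrophil markers had 2 higher and 2 lower of 8, but 1 and 1 without Type 1 replicate 1 or 2, 1 and 2 without IL-4 replicate 1 or 2, and 2 and 4 without IL-4 replicate 3. Secretory chaperones had 1 higher and 1 lower of 21, and the lower call was lost when any single library but IL-4 replicate 3 was left out, which gave 2 and 2. Of 12 cell cycle genes 1 was higher and 0 lower, or 1 and 1 without IL-4 replicate 1, and of 2 mast cell markers and 5 metallothionein and zinc genes 0 were past the threshold. The metallothioneins Mt1 (8532 to 13503 against 8787 to 13438) and Mt2 (1811 to 2825 against 2470.2 to 3079.8) overlapped. The single NK and cytotoxic T cell gene tested, the chemokine Ccl5, was lower by 0.98 on the log2 scale.

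**Figure D4:**
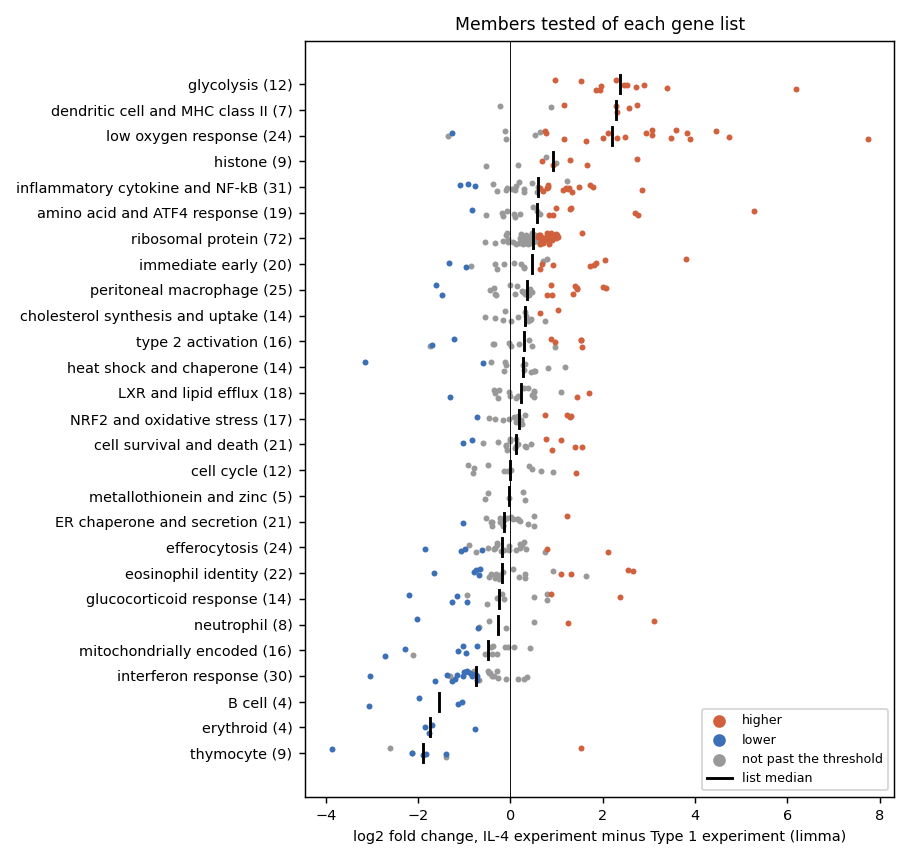
Log2 difference (IL-4 minus Type 1 experiment) of the tested genes of each list, 1 point per gene, with a bar at the list median and the number tested in brackets. Glycolysis lies wholly above 0 and 27 of the 30 interferon genes lie below it.

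The 5 least changed of the autosomal genes eligible by the naming rule were Picalm, Enah, Stx11, Ergic1 and Actr3, which serve endocytosis, the actin skeleton and membrane traffic. Actr3, a subunit of the complex that branches actin, was at 2424, 2624 and 2359 against 2698, 2369 and 2354, and Picalm, a clathrin adaptor, at 703, 729 and 705 against 759, 758 and 627. The groups overlapped for each of the 5.

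The 12 stimulated libraries, which the comparison did not use, show where the same genes stood when a stimulus was added to the ACs. Of the 1110 genes higher in the IL-4 experiment, 551 (49.6%) were also higher in all 3 libraries with IL-4 and ACs than in all 9 stimulated libraries of the Type 1 experiment, against 14.8% of all autosomal genes. Of the 868 lower genes, 416 (47.9%) were lower there, against 11.7%. With the libraries of ACs alone counted as well, all 6 IL-4 libraries stood above all 12 Type 1 libraries for 456 of the higher genes (41.1%) and below them for 351 of the lower genes (40.4%), against 6.07% and 5.07% of all autosomal genes, a count that reuses the compared libraries. Stimulus and experiment cannot be told apart in these libraries.

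The low oxygen and glycolytic genes were not low in every Type 1 arm. Bnip3 had means of 383 with E. coli, 2844 with IFN-γ and 5069 with both, and 3986 with IL-4, beside 335 and 5202 with ACs alone in the Type 1 and the IL-4 experiment. For the genes of these lists that were higher, the mean of each arm was set against the lowest IL-4 library with ACs alone. Of the 18 low oxygen genes, 0 reached it with E. coli, 6 with IFN-γ, 12 with both and 11 with IL-4. Of the 12 glycolytic genes, 0, 1, 6 and 12 reached it in the same order. Genes called higher were selected for being lower in the Type 1 libraries with ACs alone. No such count over all genes called higher is given, so these counts describe the listed genes only. Mif had means of 449.6, 1619, 2956 and 4944 in the same order. Gm10800 was at 0.587, 0.440, 109.7 and 2056, Irgm1 at 345, 1050.3, 1127 and 67.02, and Pfn1 at 4033, 2639.8, 2703 and 393. The 6 IL-4 libraries lay apart from the 12 Type 1 libraries for Gm10800, Irgm1, Pfn1 and Mif but not for Bnip3, and differences between the Type 1 arms were not tested.

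**Figure D5:**
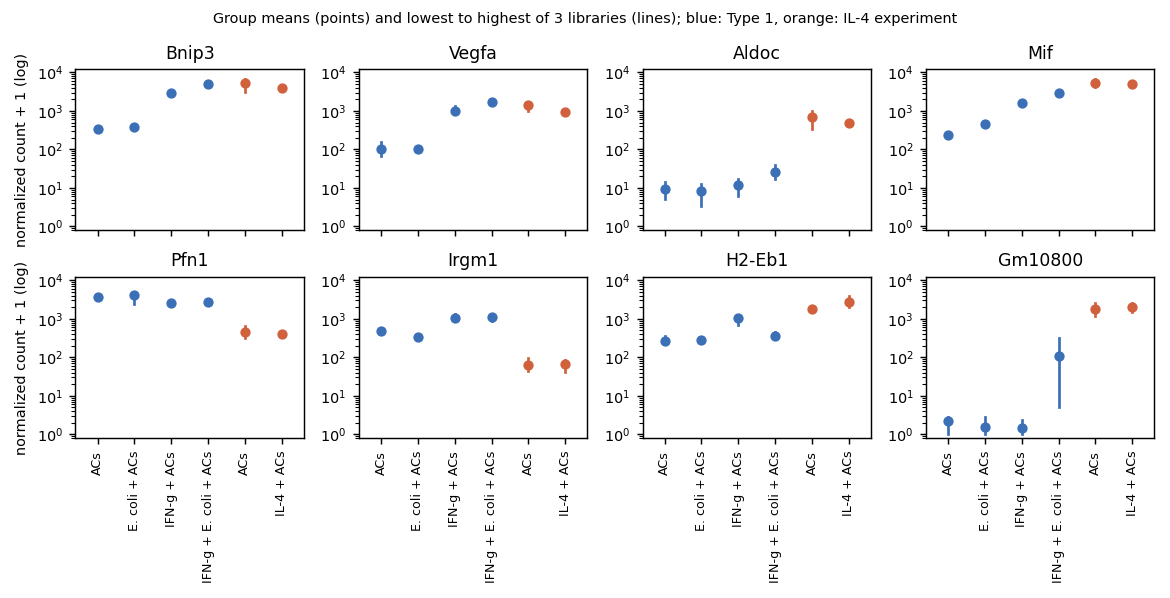
Normalized count plus 1 (log axis) of 8 genes in the 6 groups of the series, with a point at the mean and a line from the lowest to the highest of 3 libraries. The 2 groups with ACs alone are those compared here, and Aldoc, Pfn1, Irgm1 and Gm10800 lie apart by experiment in all 6 groups.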

How the data were processed

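RNA of 18 eosinophil libraries was sequenced by CEL-Seq2, and the 6 with ACs alone were used, 3 per experiment. The authors deposited 1 table of normalized counts per gene (a signal unit, reads divided by a size factor of each library). The submitters' processing notes name FastQC 0.11.5, Trim Galore, cutadapt 1.10, TopHat2 2.1.0, Bowtie2 2.2.6, HTSeq 0.6.1, DESeq2 1.26.0 and GRCm38, with no order or settings. Whole reads were recovered for 100.0% of values (tolerance 0.0055 in the normalized count). Of 54446 gene identifiers, 54409 matched GENCODE M21 without regard to version, 53229 matched with it and 37 were unmatched. Columns of other series numbered 0.

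Genes averaging 10 or more normalized counts in the 6 libraries were fitted with limma 3.58.1 (R 4.3.3, lmFit and eBayes with trend) on log2(normalized count + 1), so fold changes of low genes are understated. Genes on X, Y and the mitochondrial genome stayed in the fit and in the Benjamini-Hochberg adjustment. A gene was called at an adjusted p under 0.05 and at least 1.5-fold. On the recovered reads, edgeR 4.0.16 (quasi-likelihood, TMM) called 1222 genes higher and 1173 lower, and DESeq2 1.42.0 called 1045 and 1003. Other alternatives were another pseudocount, other filters, a common upper quartile, array weights, a replicate block, all 18 libraries and leaving out each library, and the list counts under alternatives were added after the data were seen. The fit was tested on simulated data.

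Named were the 25 transcripts with the highest lower group mean, the 20 largest rises and 20 largest falls whose groups were apart and whose higher group averaged 50 or more, list members reaching that level, and the 5 least changed genes with means of at least 200. The members and lists were chosen with earlier results of these data known. Sums, intervals and figures were made with Python 3.11.15, pandas 2.3.3, scipy 1.17.1 and matplotlib 3.10.9. Intervals and the floor of 3 reads cover counting error only.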

Additional observations from a re-analysis of the deposited data

How the results depend on the processing

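Of 223 named or listed genes past the threshold, 179 stayed past it in every one of the 16 alternatives that tested them, 140 gene values fell short in an alternative, and 0 changed direction. Leaving out 1 library gave 747 to 1425 genes higher and 482 to 1247 lower, 39 to 40 shared abundant transcripts, and 8 marker sums without overlap each time. The top 25 and top 100 shared 18 and 78 transcripts, fewer or more because the lists are shorter or longer. Only uncalled genes turned sign. S100a11 (log2 −0.01) was at 0.059 with array weights and at −0.146 to 0.140 with 1 library left out, reversing without Type 1 replicate 3 (0.041) and IL-4 replicate 3. mt-Nd1 (−0.06) ranged from −0.132 to 0.065, reversing without IL-4 replicate 1, and mt-Atp6 (0.07) was at −0.089 with array weights and ranged from −0.070 to 0.184, reversing without Type 1 replicate 1 (−0.003) and IL-4 replicate 3. The cause was not tested. Array weights called 1522 genes higher and 1255 lower. Saa3 missed the threshold when all genes above 0 were adjusted for (limma adjusted p = 0.074), and Rsad2 with DESeq2 (adjusted p = 0.084). The 779421 reads of IL-4 replicate 3 limit what can be seen in low genes.

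Deviations of same-numbered libraries correlated at −0.038, 0.052 and 0.041, so no pairing by replicate number was seen. With 3 libraries per group and a shallow IL-4 replicate 3, this check cannot exclude a pairing. A fit with the replicate number as a block called 1020 genes higher and 839 lower.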
